A study of Mus musculus with 12 samples.

Results

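A set of 10 keratin genes were followed in colonic adenomas of ApcMin mice, chosen by name as the keratins that simple and squamous epithelia are known for. The 6 simple-epithelium keratins are Krt8, Krt18, Krt19, Krt20, Krt7 and Krt23, and the 4 squamous-epithelium keratins are Krt5, Krt6a, Krt13 and Krt14. All 10 are listed among the 25705 genes of the deposited table, and 9 of them passed the filter for testing, an FPKM (fragments scaled by transcript length and by the mapped fragments of the library) of at least 1 in at least 3 libraries. The exception was Krt5. RNA levels were measured by RNA sequencing in 12 libraries, 3 from each of 4 genotypes.

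Every animal was of the C57BL/6J strain and carried ApcMin/+, a truncating allele of the tumour suppressor Apc under which intestinal adenomas form, and tissue was taken at 150 to 160 days of age. The Tet1-null group is Tet1-/- Tdg+/+ ApcMin/+. The double-heterozygous group is Tet1+/- TdgN151A/+ ApcMin/+, and the Tdg-heterozygous group is Tet1+/+ TdgN151A/+ ApcMin/+. The control group is Tet1+/+ Tdg+/+ ApcMin/+, so even the controls are adenomas and no normal colon was measured here. Tet1 oxidises methylated cytosine and Tdg excises oxidised bases, both steps of DNA demethylation. The dissected tissue is a mixture of epithelium with stroma and blood cells. The labels do not say whether each library came from another animal, so p-values measure the spread between these samples only. Libraries are called by group and by their column number in the table, 0 to 2.

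Keratins form the intermediate filaments of epithelial cells. A filament is built from pairs of 1 acidic type I chain and 1 basic type II chain, and chains without a partner are unstable, so epithelia express them in pairs. Krt8 with Krt18 and Krt19 is the basic set of simple epithelium, including the colon, where these keratins sit under the apical membrane and anchor to desmosomes. Krt20 is typical of differentiated cells at the intestinal surface, and Krt7 of glandular and ductal epithelium. Krt5 with Krt14 marks the basal layer of stratified squamous epithelium, Krt13 (with Krt4) the upper layers of internal squamous epithelia such as oesophagus, and Krt6a is a keratin of stressed or wounded epidermis.

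The sum of FPKM over all genes ranged from 663551 to 977282 per library. Read counts are not part of the files used, so depth in reads is unknown. Epithelial RNA was present throughout, with Epcam, the epithelial adhesion molecule, at 753 to 1856 FPKM. All 8 intestinal epithelium markers passed the filter, which does not speak for each single library. Their sum was lowest in Tet1-null library 0, at 2031 FPKM, where Cdx2, which is among them, was under 1 FPKM. Tet1 was at 0.127 to 0.621 FPKM over the 12 libraries, with the Tet1-null range of 0.163 to 0.621 around that of the controls, so its level does not check the labels, and TdgN151A is a point mutation that a gene level cannot show. Some libraries stood apart from the rest. The 7 Wnt target genes, which are active in Apc-mutant adenoma cells, summed to 33.0 FPKM in Tet1-null library 1 and 92.5 FPKM in Tdg-heterozygous library 2, against a median of 512 over the 12 libraries. Next was double-heterozygous library 0 at 234 FPKM. Tet1-null library 1 also had the highest sums for smooth muscle markers (422 FPKM, median 79.2) and differentiated colonocyte markers (1053 FPKM, median 238). Tdg-heterozygous library 2 had the highest sums for intestinal epithelium (9235 FPKM, median 4014) and neutrophil markers (6187 FPKM, median 369.6). Genotype comparisons that rest on these libraries are given with and without them. In bulk tissue, fewer cells of a type and less RNA per cell cannot be told apart.

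Krt8 was the most abundant type II keratin. Its RNA was at 705, 3551 and 1576 FPKM in Tet1-null libraries 0, 1 and 2, and at 1774, 937 and 1015 FPKM in the controls. In the double-heterozygous libraries it was at 2273, 984 and 1301 FPKM, and in the Tdg-heterozygous libraries at 1129.9, 1026 and 4575 FPKM. The highest and the lowest values were both in mutant groups, and every mutant group overlapped the controls. The group means were 1944 ± 1458 (Tet1-null), 1519 ± 672 (double-heterozygous), 2243 ± 2019 (Tdg-heterozygous) and 1242 ± 462 (control) FPKM (SD, n = 3 each). By level, Krt8 ranked between 16th and 112th among all listed genes of a library.

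Krt19, a small type I chain that pairs with Krt8, varied much as Krt8 did. It was at 896, 3483 and 1459.8 FPKM in Tet1-null and at 1795, 1019 and 1086 FPKM in control libraries. The double-heterozygous libraries had 2211, 1179 and 1343 FPKM, and the Tdg-heterozygous libraries 1294, 1159 and 3750.4 FPKM. Tet1-null library 0 was again the lowest and Tdg-heterozygous library 2 the highest. Averaged over libraries, Krt8 (1737 FPKM) and Krt19 (1723 FPKM) stood at nearly the same level, and Krt8 was the higher of the pair in only 4 of 12 libraries.

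Krt18, the classical type I partner of Krt8, was lower and steadier. It was at 408, 537 and 656 FPKM in Tet1-null and at 567, 449 and 529.6 FPKM in control libraries. Levels in the double-heterozygous libraries were 739, 511 and 405 FPKM, and in the Tdg-heterozygous libraries 603, 441 and 1207 FPKM. Tdg-heterozygous library 2 was the highest, while Tet1-null library 1, where Krt8 was next to highest, lay close to the median of 533 FPKM. Krt18 was below Krt19 in 12 of 12 libraries, and above Krt7 in 12 of 12.

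Krt20, the keratin of differentiated surface cells, varied most. It was at 8.72, 463 and 184 FPKM in Tet1-null and at 285, 12.1 and 29.1 FPKM in control libraries. The double-heterozygous libraries had 337, 20.03 and 77.8 FPKM, and the Tdg-heterozygous libraries 33.01, 59.9 and 1053 FPKM. Each genotype therefore held at least 1 library with high and 1 with low Krt20. The highest library of a group exceeded the lowest by 53.1-fold among Tet1-null, 16.8-fold among double-heterozygous, 31.9-fold among Tdg-heterozygous and 23.4-fold among control libraries. Differentiated colonocyte markers, which include the anion exchanger Slc26a3 and the carbonic anhydrases Car1 and Car4, moved in part with it. Their sum was lowest in the library with the least Krt20, at 72.3 FPKM, and its 3 highest values, 1053, 803 and 689 FPKM, lay in Tet1-null library 1, control library 0 and Tdg-heterozygous library 2. Double-heterozygous library 0, with 337 FPKM of Krt20, had a marker sum of only 206 FPKM, under the median of 238. What part these markers have in the Krt20 values was not tested.

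Krt7, a type II keratin of glandular epithelium, was the most even. It was at 247, 296 and 275 FPKM in Tet1-null and at 232, 249.7 and 274 FPKM in control libraries. Levels in the double-heterozygous libraries were 271, 298 and 219 FPKM, and in the Tdg-heterozygous libraries 265, 266 and 544 FPKM. Apart from Tdg-heterozygous library 2, all libraries lay within 219 to 298 FPKM. Mean levels of Krt7 (286 FPKM) and Krt20 (214 FPKM) were neighbours in the order, and Krt7 was higher in 8 of 12 libraries.

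Krt23, a type I keratin of simple epithelium, ran the other way. It was at 132, 8.61 and 88.3 FPKM in Tet1-null and at 98.1, 75.7 and 103 FPKM in control libraries. The double-heterozygous libraries had 70.6, 112 and 63.6 FPKM, and the Tdg-heterozygous libraries 121, 90.7 and 35.7 FPKM. Its lowest values were in the libraries with the most Krt8, and its highest value was in the library with the least. The same low libraries had the lowest Wnt target sums, and whether the low Wnt target RNA has a part in the Krt23 values was not tested. Krt20 exceeded Krt23 in 6 of 12 libraries, and the ratio of Krt20 to Krt23 ran from 0.0658 in Tet1-null library 0 to 53.8 in Tet1-null library 1.

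**Figure D1:**
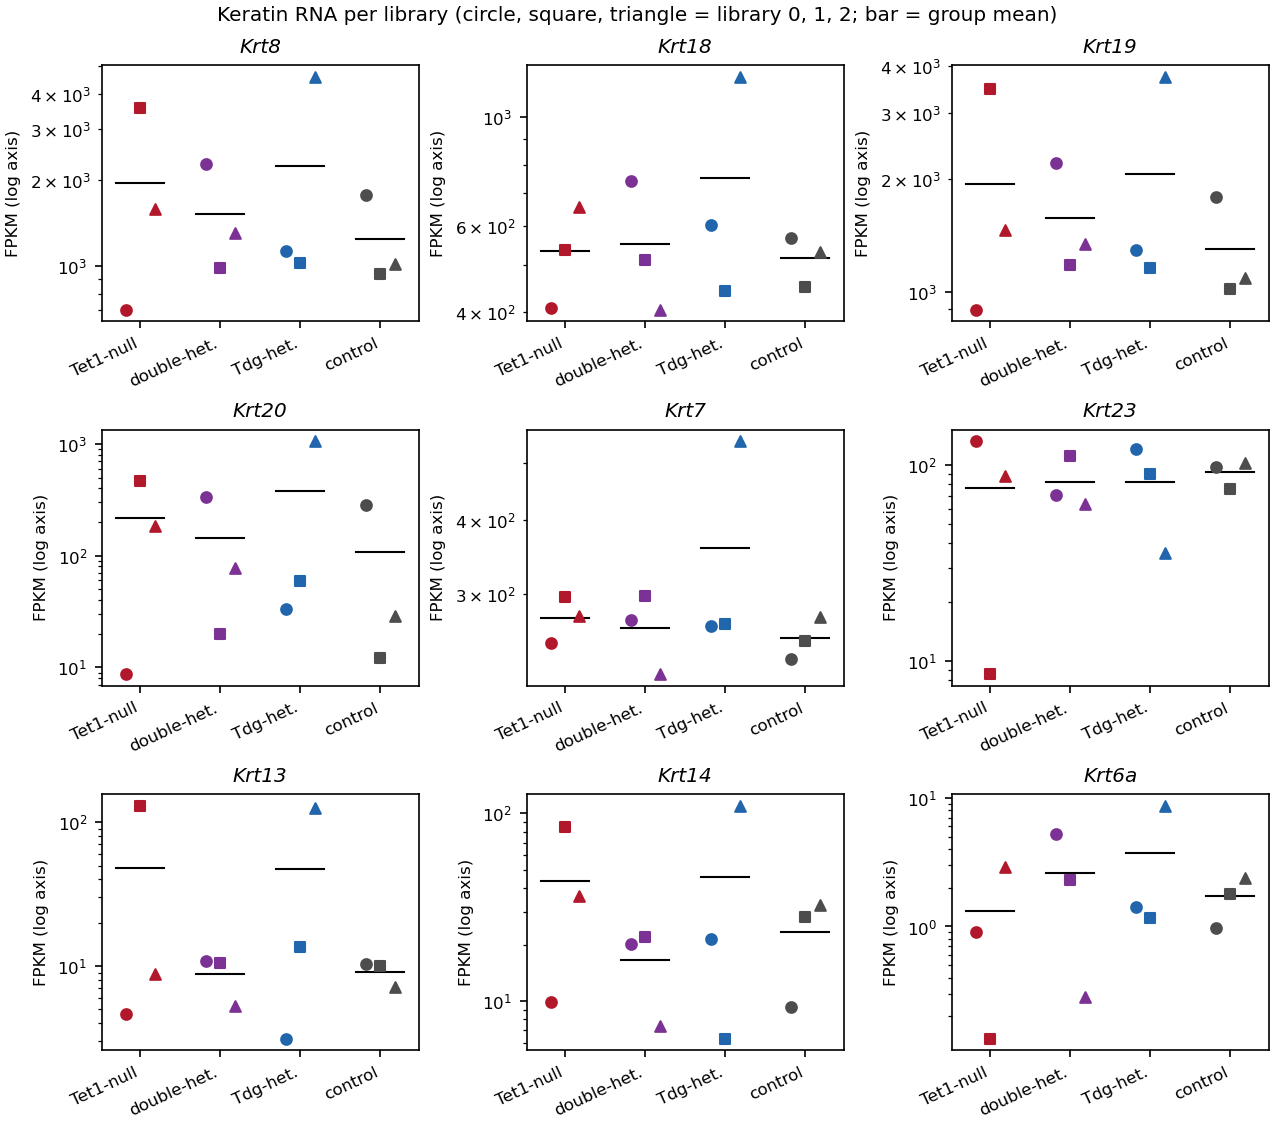
RNA level of the 9 tested keratins (FPKM, log axis) in the 12 libraries by genotype group, with circle, square and triangle for libraries 0, 1 and 2 and a bar for the group mean. Tet1-null library 1 and Tdg-heterozygous library 2 carry the highest Krt8, Krt19, Krt20, Krt13 and Krt14 and the lowest Krt23, and every mutant group overlaps the controls.

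Among the squamous keratins, Krt14 and Krt13 were present at low to moderate levels while Krt5 was next to absent. Krt14, the type I chain of basal squamous cells, was at 9.87, 85.2 and 36.3 FPKM in Tet1-null and at 9.29, 28.1 and 32.4 FPKM in control libraries. Levels in the double-heterozygous libraries were 20.1, 22.04 and 7.41 FPKM, and in the Tdg-heterozygous libraries 21.4, 6.31 and 109.7 FPKM. Krt5, its type II partner, was listed at 0 in 10 of 12 libraries, at 0.0402 FPKM in Tet1-null library 1 and at 0.0196 FPKM in double-heterozygous library 2. Trp63, the transcription factor that defines basal squamous cells, did not exceed 0.288 FPKM in any library. Krt14 RNA was thus measured without comparable RNA of either of these basal genes.

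Krt13, the type I chain of internal squamous epithelium, split the libraries most sharply. It was at 129.8 FPKM in Tet1-null library 1 and 125 FPKM in Tdg-heterozygous library 2, and at 3.14 to 13.7 FPKM in the other 10. Its values were 4.66 and 8.77 FPKM in the remaining Tet1-null libraries and 10.3, 10.1 and 7.16 FPKM in the controls. The double-heterozygous libraries had 10.8, 10.5 and 5.32 FPKM, and the remaining Tdg-heterozygous ones 3.14 and 13.7 FPKM. Krt4, the type II chain that pairs with Krt13 in squamous epithelium, did not accompany it and was at its lowest in the same libraries, at 0.244 and 0.444 FPKM, against 1.17 to 9.57 FPKM elsewhere (Krt4 was singled out after its values were seen).

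Krt6a, a type II keratin induced in injured epidermis, was near the limit of what was listed. It was at 0.904, 0.134 and 2.91 FPKM in Tet1-null and at 0.972, 1.803 and 2.39 FPKM in control libraries. The double-heterozygous libraries had 5.28, 2.29 and 0.281 FPKM, and the Tdg-heterozygous libraries 1.43, 1.17 and 8.65 FPKM. Of the 75-nt windows of its transcript, 42.3% also occur in Krt6b, Krt5 or related gene models, so its values are uncertain. The corresponding share was 22.0% for Krt8, with the pseudogene Krt8-ps, 5.91% for Krt14, with Krt16, and 5.18% for Krt5. It was 0% for Krt18, Krt19, Krt20, Krt7, Krt23 and Krt13. Gene models on the other strand overlap Krt8, Krt7, Krt5 and Krt6a, and how strand was treated in counting is not given in the sources used here.

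The stratified squamous epithelium list, which includes Krt13 and Krt14, holds 16 genes, of which 15 were in the table and 9 were tested. Its summed level was 58.3 to 299 FPKM in the Tet1-null, 54.8 to 292 FPKM in the double-heterozygous, 63.7 to 579.5 FPKM in the Tdg-heterozygous and 69.7 to 98.8 FPKM in the control libraries. The highest member was Sprr1a, a cornified envelope protein, at 8.24 to 329 FPKM. Of the rest, 6 listed genes stayed under 1 FPKM in all libraries, among them Trp63, Krt5, Dsc3 and Ivl. Other members were expressed, with the basal keratin Krt15 at 2.32 to 20.5 FPKM and Krt4 at 0.244 to 9.57 FPKM. Dsg3 was at 0.112 to 3.57 FPKM and Krt10 at 0.763 to 1.35 FPKM. Mesothelium also expresses simple keratins, and 4 of its 5 markers stayed under 1 FPKM throughout, while Msln was at 3.32 to 25.8 FPKM. What part either cell type has in the keratin values was not tested.

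Together the 10 keratins made up 0.364% of the summed FPKM in Tet1-null library 0 and 1.17% in Tdg-heterozygous library 2, with a median of 0.468%. Within this keratin RNA, Krt8 took 29.2 to 41.5%, Krt19 32.9 to 40.7% and Krt18 6.28 to 17.4%. The 4 squamous keratins took 0.381 to 2.52%, with the highest shares in Tet1-null library 1 (2.52%) and Tdg-heterozygous library 2 (2.13%). The ratio of summed type II to summed type I chains was narrow, from 0.653 to 0.817, although the sums themselves spanned 953 to 5127 FPKM for type II. Krt8 to Krt19 was similarly narrow (0.787 to 1.22). Krt8 to Krt18 was not, and ran from 1.73 in Tet1-null library 0 to 6.61 in Tet1-null library 1. These ratios compare RNA per transcript length and say nothing of protein.

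**Figure D2:**
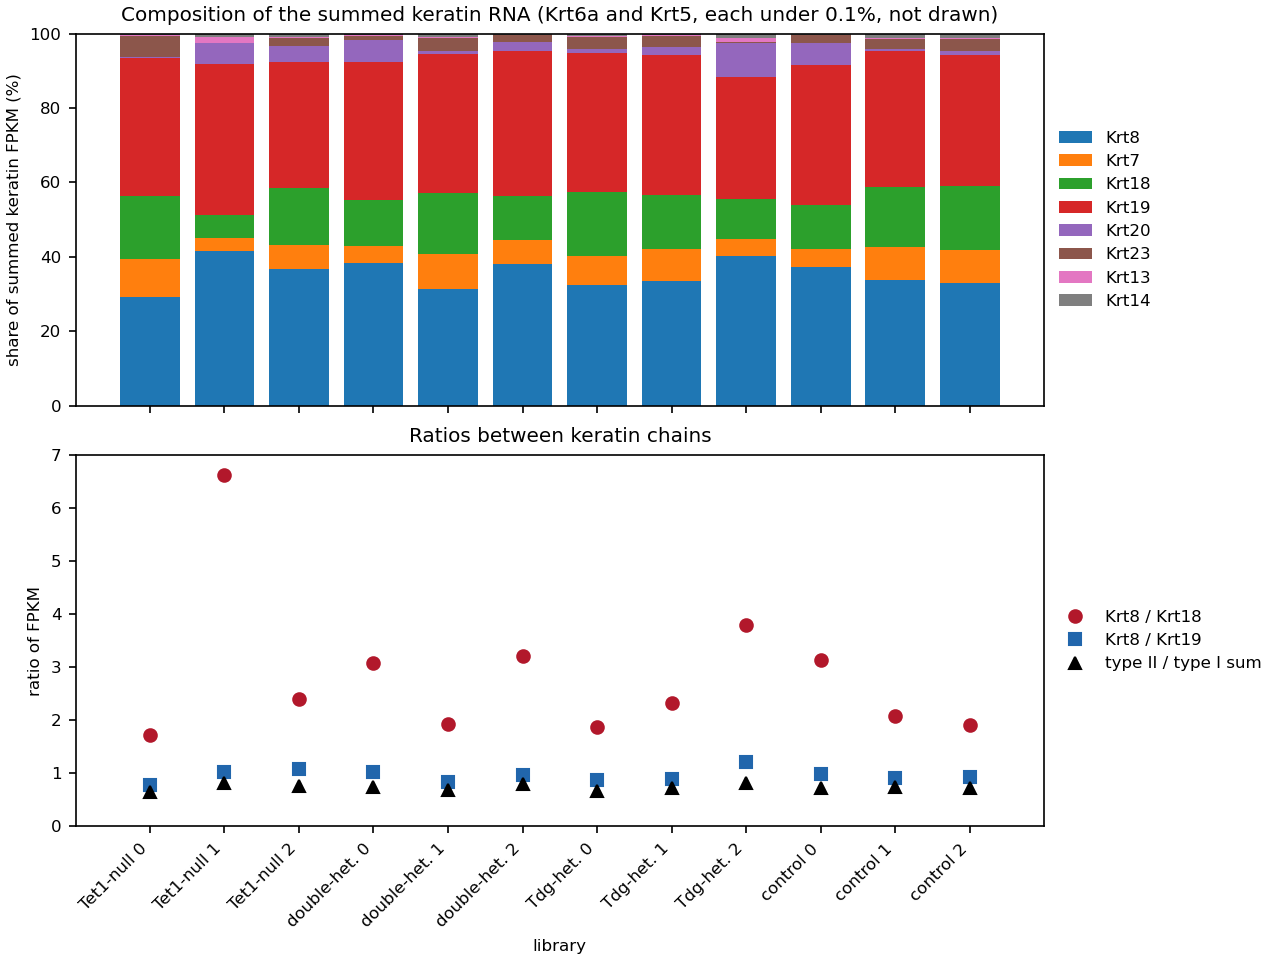
Share of each keratin in the summed keratin FPKM (upper panel, %) and ratios between chains (lower panel, ratio of FPKM) in the 12 libraries. Krt8 to Krt19 and type II to type I stay between 0.653 and 1.22, while Krt8 to Krt18 reaches 6.61 in Tet1-null library 1.

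No keratin was shown to differ by genotype. No tested keratin differed between groups in any of the 5 comparisons or in the test for any difference among the 4 groups, by limma on log2(FPKM + 1) with Benjamini-Hochberg adjustment over 15150 genes. The lowest adjusted p of a keratin was 0.999. Few genes of any kind passed either, so the count of 0 among 9 keratins is close to the background in each comparison.

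In Tet1-null against control libraries, 0 of 9 keratins passed, against 0.0132% of all tested genes. At an unadjusted p under 0.05 the count was also 0 of 9, against 1.63% of genes. Values of the groups overlapped for all 9, whereas they did not overlap for 5.64% of genes. On the log2(FPKM + 1) scale 7 keratins were nominally higher and 2 lower, with a median difference of 0.40 against 0.03 over all tested genes. Krt20 differed by 0.96 (SE 1.82, 95% interval -3.09 to 5.01, limma adjusted p = 1) and Krt8 by 0.41 (SE 0.684, -1.12 to 1.93). Krt23 had the smallest unadjusted p, 0.293, with a difference of -0.93 (SE 0.839, -2.80 to 0.94). Without Tet1-null library 0 these estimates grew, with Krt20 at 2.6, Krt8 at 0.99, Krt19 at 0.84, Krt13 at 1.83, Krt14 at 1.40 and Krt23 at -1.66, and the lowest limma adjusted p of a keratin was 0.770. Without Tet1-null library 1, the sign changed for 7 keratins, with Krt20 at -0.19, Krt8 at -0.18, Krt19 at -0.14, Krt13 at -0.44, Krt14 at -0.10, Krt6a at 0.04 and Krt23 at 0.24.

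In double-heterozygous against control libraries, 0 of 9 passed, against 0.0198% of all genes, and 0 of 9 reached an unadjusted p under 0.05, against 1.17% of genes. Groups overlapped for all 9, and failed to overlap for 7.79% of genes. Here 6 keratins were nominally higher and 3 lower, with a median of 0.06 against 0.05 over all genes. Krt20 differed by 0.77 (SE 1.82) and Krt14 by -0.43 (SE 1.01), the largest estimates in either direction. Leaving out double-heterozygous library 0 moved Krt20 to -0.25, Krt8 to -0.07, Krt18 to -0.17 and Krt6a to -0.37. Without double-heterozygous library 2, Krt14 moved to 0.03 and Krt13 from -0.08 to 0.21. The small estimates of Krt7, Krt13 and Krt6a also changed sign without control library 0. Leaving out control library 1 moved Krt20 to -0.17 and Krt18 to -0.04. Leaving out control library 0, the control with the most Krt20, moved Krt20 the other way, to 2.05. In the Tet1-null and Tdg-heterozygous comparisons with control, Krt20 without control library 0 was at 2.24 and 2.70. Without control library 1 it was at 0.02 and 0.48 there.

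In Tdg-heterozygous against control libraries, 0 of 9 passed, against 0.0198% of all genes, and 0 of 9 reached an unadjusted p under 0.05, against 0.898% of genes. Non-overlapping groups were found for none of the 9 and for 4.01% of genes. The count was 8 higher and 1 lower, with a median of 0.48 against -0.01 over all genes. Krt7 had the smallest unadjusted p of any keratin in the comparisons, 0.130, at a difference of 0.42 (SE 0.256, interval -0.15 to 0.99, limma adjusted p = 1). That interval covers 0.903-fold to 1.99-fold on the FPKM + 1 scale, and for Krt20 it covers 0.162-fold to 44.4-fold. Without Tdg-heterozygous library 2, Krt20 moved from 1.42 to -0.09, Krt8 from 0.55 to -0.14, Krt19 from 0.50 to -0.04, Krt13 from 0.97 to -0.37, Krt14 from 0.29 to -0.75, Krt6a from 0.48 to -0.21 and Krt23 from -0.32 to 0.19. Krt7 moved from 0.42 to 0.08 and Krt18 from 0.42 to 0.01, so the estimates of all 9 keratins rested on that library.

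The double-heterozygous and Tdg-heterozygous groups share TdgN151A/+ and differ in Tet1. Between them 0 of 9 keratins passed, as did 0% of all genes, and 0 of 9 reached an unadjusted p under 0.05, against 1.52% of genes. Groups overlapped for all 9 and failed to for 5.6% of genes. 1 keratin was nominally higher and 8 lower, with a median of -0.36 against 0.05. Krt13 had the largest estimate, -1.05 (SE 1.29). Without Tdg-heterozygous library 2 the sign changed for 8 of 9 keratins, with Krt13 at 0.29, Krt20 at 0.86, Krt8 at 0.41, Krt19 at 0.31, Krt14 at 0.32, Krt18 at 0.05, Krt6a at 0.38 and Krt23 at -0.39. When the 3 mutant groups were averaged and set against control, 0 of 9 passed (0.0198% of all genes), with an unadjusted count of 0 (1.03%) and no non-overlapping group (0.238%), and 8 keratins were nominally higher and 1 lower. Without Tet1-null library 1 and Tdg-heterozygous library 2 this count became 5 higher and 4 lower, with Krt8 at -0.02, Krt13 at -0.30, Krt14 at -0.43, Krt6a at -0.0018 and Krt23 at 0.08. In the test for any difference among the 4 groups, 0 of 9 passed, against 0.0264% of genes. These comparisons share control or Tdg-heterozygous libraries, so their directions are not independent of each other.

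**Figure D3:**
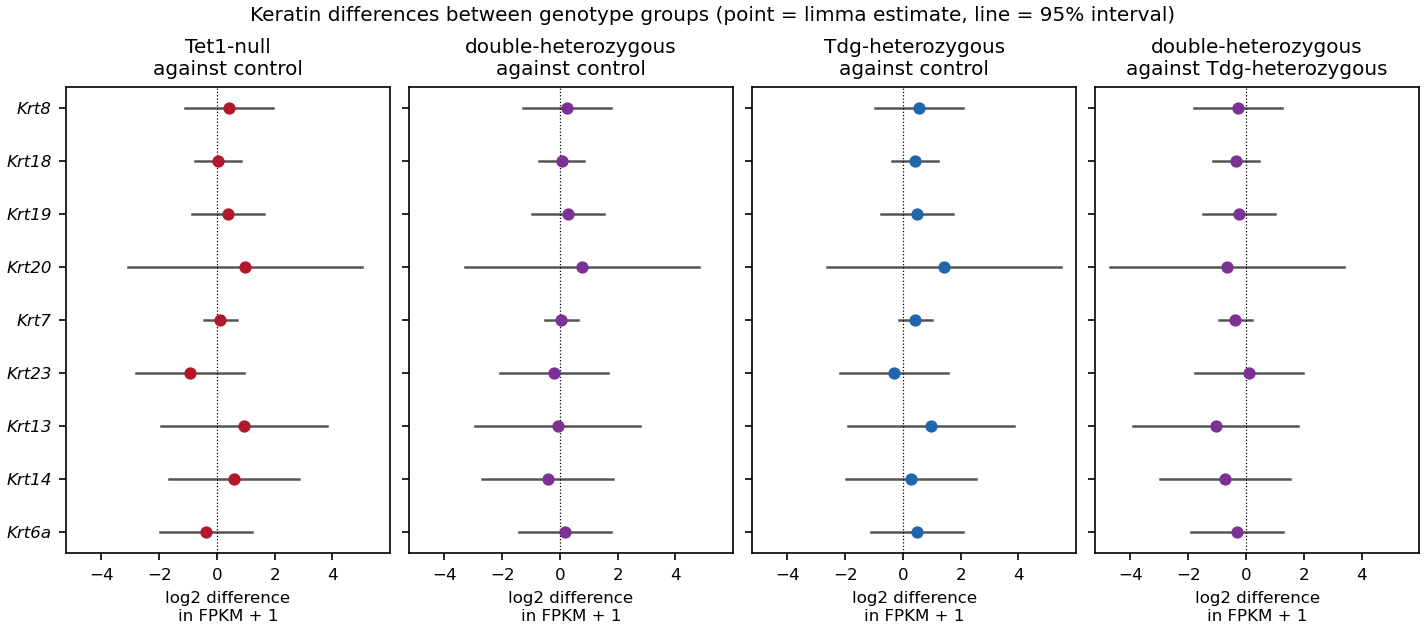
Difference of each tested keratin between genotype groups (log2 of FPKM + 1, horizontal axis), with the limma estimate as a point and its 95% interval as a line, in 4 comparisons. Every interval includes 0, the narrowest for Krt7 and the widest for Krt20, where Tet1-null against control spans -3.09 to 5.01.

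The spread within genotype groups was large. The SD of log2(FPKM + 1) within groups put Krt20 at the 99.4th percentile of the tested genes, Krt13 at the 97.6th, Krt14 at the 95.4th and Krt23 at the 92.9th. Krt6a (90.4th), Krt8 (89.5th) and Krt19 (85.1st) followed, then Krt18 (68.6th) and Krt7 (50.7th). Differences between groups made up 6.00% (Krt20) to 27.0% (Krt7) of a keratin's variance over the libraries, against a median of 15.2% over all tested genes. This share is not corrected for the number of groups, so it lies above 0 even where genotype has no effect. The lowest unadjusted p of a keratin in the limma F test was 0.395, for Krt7. Over all libraries the highest level exceeded the lowest by 121-fold for Krt20, 64.4-fold for the low and uncertain Krt6a, 41.4-fold for Krt13, 17.4-fold for Krt14, 15.4-fold for Krt23, 6.49-fold for Krt8, 4.19-fold for Krt19, 2.98-fold for Krt18 and 2.48-fold for Krt7.

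Krt8, Krt19 and Krt20 varied together across libraries. Over 12 libraries, Krt8 and Krt19 had a Pearson r of 0.992 (permutation p = 1e-05, the smallest that 100000 resamples can give, adjusted p = 2.5e-05 over 5 pairs) and a Spearman rho of 0.979 (permutation p = 1e-05). Krt19 and Krt20 had r = 0.924 (permutation p = 1e-05, adjusted p = 2.5e-05) and rho = 0.965 (permutation p = 2e-05). Leaving out the 2 libraries farthest from the median, Tet1-null library 1 and Tdg-heterozygous library 2, gave r = 0.982 and r = 0.931. As deviations from the group means, r was 0.992 and 0.920, so the relation was as close among libraries of 1 genotype. Krt8 also followed Epcam (r = 0.889, permutation p = 9e-05, adjusted p = 1.5e-04, rho = 0.811, permutation p = 0.00239, and r = 0.870 without the same libraries). Summed intestinal epithelium markers were also highest in those libraries (9235 and 8143 FPKM), and their part in the keratin relations was not tested.

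Krt18, the other type I chain of this set, had lower coefficients. Krt8 and Krt18 had r = 0.769 (permutation p = 0.00372, adjusted p = 0.00465) and rho = 0.706 (permutation p = 0.0136), and r = 0.758 without the 2 farthest libraries. Krt18 and Krt19 had r = 0.733 (permutation p = 0.00715) and rho = 0.713 (permutation p = 0.0119). Without Tdg-heterozygous library 2 and double-heterozygous library 0, this last r was 0.411 (permutation p = 0.248) and rho was 0.552. These libraries were the farthest from the Krt18 median, so leaving them out narrows the range of Krt18. The lower r therefore does not show that the relation rests on them. With all libraries scaled to the same total, both relations missed the threshold (r = 0.554, adjusted p = 0.0739, and r = 0.488, adjusted p = 0.104). A value for Krt5 and Krt14 is not given because Krt5 did not pass the filter.

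**Figure D4:**
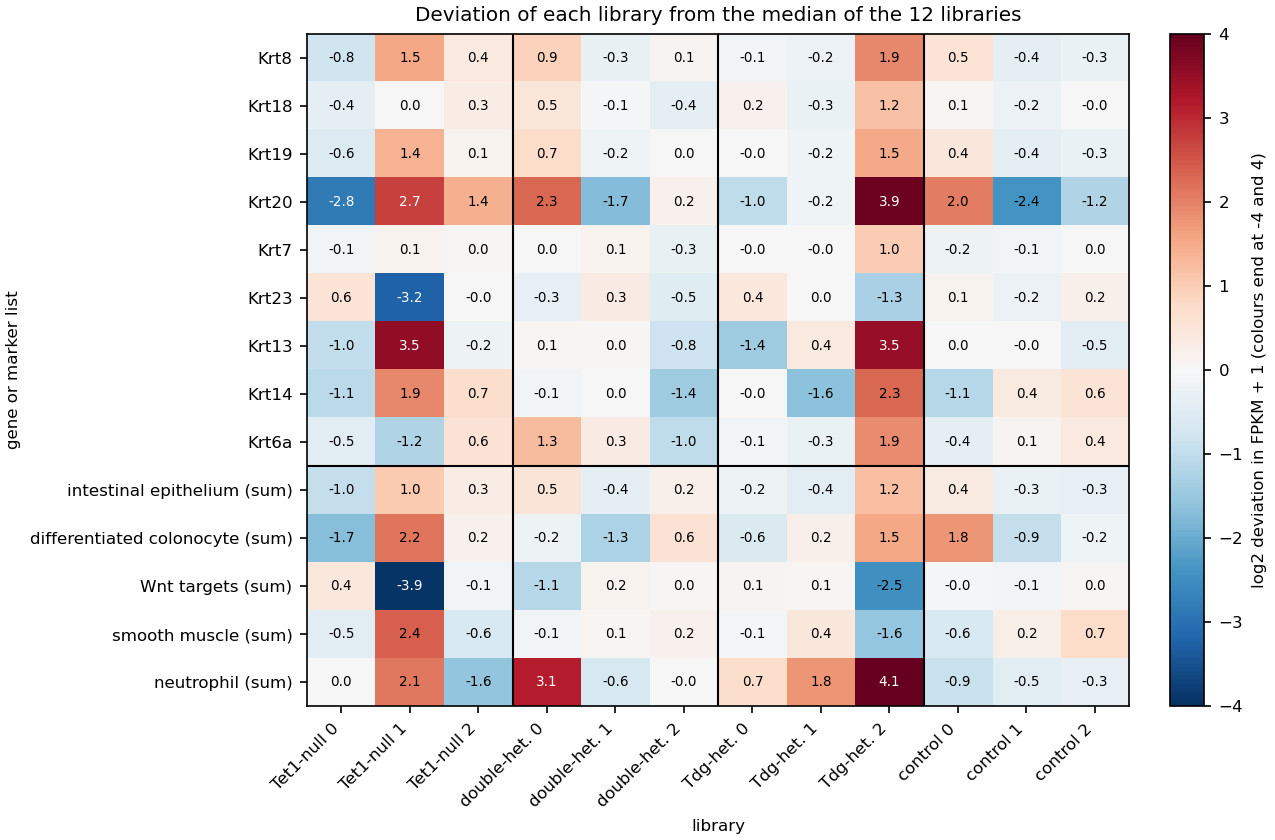
Deviation of each library from the median of the 12 libraries (colour and number, log2 of FPKM + 1) for 9 keratins and 5 marker list sums, with lines between genotype groups. Krt8, Krt19 and Krt20 are highest and Krt23 and the Wnt target sum lowest in Tet1-null library 1 and Tdg-heterozygous library 2.

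The promoters of keratins that varied together, Krt8 and Krt20, and of the steadier Krt18 and Krt7 are shown so that their sequences can be compared. They are RefSeq sequences of GRCm38.p6, from 250 bases before to 50 after the annotated start, written 5′ to 3′ on the gene's strand, with motif matches in capitals.
Krt8 (chr15:102004293-102004592, minus strand): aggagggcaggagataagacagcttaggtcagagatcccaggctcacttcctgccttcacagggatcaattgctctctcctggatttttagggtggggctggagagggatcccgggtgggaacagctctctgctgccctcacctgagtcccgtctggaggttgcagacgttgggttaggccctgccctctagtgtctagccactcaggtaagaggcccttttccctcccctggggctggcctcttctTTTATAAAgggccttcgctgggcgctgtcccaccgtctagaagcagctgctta
Krt20 (chr11:99438104-99438403, minus strand): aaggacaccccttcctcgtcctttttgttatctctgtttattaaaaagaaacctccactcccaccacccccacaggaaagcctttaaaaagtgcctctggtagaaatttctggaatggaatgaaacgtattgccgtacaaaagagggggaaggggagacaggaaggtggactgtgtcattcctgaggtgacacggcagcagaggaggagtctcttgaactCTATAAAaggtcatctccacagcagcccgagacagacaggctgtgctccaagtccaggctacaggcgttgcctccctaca
Krt18 (chr15:102027966-102028265, plus strand): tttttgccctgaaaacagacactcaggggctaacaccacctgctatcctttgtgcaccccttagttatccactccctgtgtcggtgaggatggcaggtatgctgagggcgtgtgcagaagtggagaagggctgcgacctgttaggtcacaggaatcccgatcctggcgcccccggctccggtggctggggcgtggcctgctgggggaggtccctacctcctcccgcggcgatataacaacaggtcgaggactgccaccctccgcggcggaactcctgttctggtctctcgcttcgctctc
Krt7 (chr15:101412153-101412452, plus strand): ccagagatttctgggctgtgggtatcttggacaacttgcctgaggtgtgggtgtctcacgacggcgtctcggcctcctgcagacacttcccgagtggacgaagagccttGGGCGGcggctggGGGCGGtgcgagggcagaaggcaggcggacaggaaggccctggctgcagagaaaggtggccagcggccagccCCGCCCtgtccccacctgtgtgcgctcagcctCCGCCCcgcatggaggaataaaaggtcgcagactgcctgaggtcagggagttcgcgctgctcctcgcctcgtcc

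A set of 4 motifs was searched on both strands: the TATA box (TATAAA, in 13.6% of 32851 promoters of this length), the GC box (GGGCGG, 35.7%), an AP-1 site (TGANTCA, 7.81%) and a CDX site (TTTATNG, 10.9%). Krt8 and Krt20 each held a match to the TATA box letters, which in Krt8 begins 1 base and in Krt20 29 bases before the annotated start. The positions therefore differ. The mm10 gene listing of Krt8 extends to chr15:102004482, upstream of the start used here, so its start differs between annotations. The capitals of Krt20 also hold a CDX match that overlaps its TATA match, and those of Krt8 another TATA match on the other strand. Krt7 held 4 GC boxes and its window was 66.3% G or C, against a median of 52.7% over all promoters. Krt18 held none of the 4 motifs in this window, at 61.3% G or C. Promoters of 8 of the 10 keratins were matched. Among those not shown, Krt13 held AP-1 and CDX matches but no TATA match, and Krt14, Krt23 and Krt5 held none of the 4 motifs. Krt13, Krt14 and Krt23 varied more within groups than Krt8, so the promoters shown do not stand for all varying keratins. These matches are a description of letters.

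By position (mm10), the type I genes lie on chromosome 11, with Krt20 at chr11:99428403-99438150, Krt23 at chr11:99477974-99493137, Krt13 at chr11:100117327-100121566, Krt19 at chr11:100140810-100148665 and Krt14 at chr11:100203162-100207548, all on the minus strand. The type II genes lie on chromosome 15, with Krt7 at chr15:101411043-101430313, Krt6a at chr15:101689910-101694307, Krt5 at chr15:101707070-101712898 and Krt8 at chr15:101996698-102004482. Krt18 is the exception, a type I gene beside Krt8 at chr15:102028180-102032027. Genes at neighbouring positions were compared in a few examples. Krt20 and Krt23, next to each other in this list, were high in different libraries. Krt8 had an r of 0.992 with Krt19 on the other chromosome and of 0.769 with the adjacent Krt18, a difference that was not tested. Krt13 had an r of 0.854 with Krt19, which lies close by, and of 0.729 with Krt14. By rank these relations were weaker, with a Spearman rho of 0.580 for Krt19 and 0.301 for Krt14. Neither relation was tested, and no r is given without the libraries in which Krt13 was far above the rest. These values therefore do not show that neighbouring keratins vary together.

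Desmosomes and hemidesmosomes anchor keratin filaments to the membrane. Of 21 genes listed, 17 were tested and 0 were called in any of the 5 comparisons by limma, against at most 0.0198% of all tested genes. At an unadjusted p under 0.05 the count was 1 between double-heterozygous and Tdg-heterozygous libraries, against 1.52% of all genes, and 0 elsewhere, against 0.898 to 1.63%. The most abundant were the integrin Itga6 (159.8 to 469.9 FPKM), Perp (70.9 to 395 FPKM), a desmosomal membrane protein, and plakoglobin Jup (114 to 271 FPKM). Each was highest in Tdg-heterozygous library 2. Against the controls, 15, 16 and 14 of the 17 were nominally higher in the Tet1-null, double-heterozygous and Tdg-heterozygous groups, with medians of 0.25, 0.29 and 0.26 against 0.03, 0.05 and -0.01 over all genes. Without Tet1-null library 1 and Tdg-heterozygous library 2, these counts became 9, 16 and 3 of 17, a setting added for the lists after seeing the data. Neither library is in the double-heterozygous or control group, so the estimates behind the 16 could not change. With double-heterozygous library 0 left out as well, also chosen after seeing the data, the double-heterozygous count was 9 of 17, with a median of 0.05.

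Among 15 other intermediate filament genes, 7 were tested and 0 were called in any comparison, with 0 at an unadjusted p under 0.05. The shares over all tested genes were 0 to 0.0198% called and 0.898 to 1.63% at that unadjusted p, as for the lists that follow. Vim, the filament protein of mesenchymal cells, was highest at 756 FPKM in Tet1-null library 0, where keratin RNA was lowest, and lowest at 157 FPKM in Tdg-heterozygous library 2, where it was highest. Lmna, a nuclear lamin, was at 93.5 to 378 FPKM and Lmnb1 at 33.3 to 65.9 FPKM. Of 15 transcription factors of keratin-expressing epithelia, 13 were tested and 0 were called, with 0 at an unadjusted p under 0.05. The most abundant were Elf3 (174 to 490 FPKM), Ehf (95.9 to 138 FPKM) and Klf5 (74.7 to 166 FPKM), all epithelial regulators. Cdx2, the intestinal identity factor, was at 0.162 FPKM in Tet1-null library 0, which had the least Krt20, and at 19.7 FPKM in control library 0 (Cdx2 was singled out after its values were seen).

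The 31 other keratins of the table were mostly silent, with 21 under 1 FPKM in all libraries and 8 tested. Of these 0 were called in any comparison, against 0 to 0.0198% of all tested genes, and 0 had an unadjusted p under 0.05, against 0.898 to 1.63%. Krt36, a hair-type keratin, was at 9.73 to 92.2 FPKM. Krt17, a stress keratin of skin appendages, was at 0.219 FPKM in Tet1-null library 1 and at 6.57 to 41.2 FPKM elsewhere. Krt15, a basal keratin, was at 2.32 to 20.5 FPKM.

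The genes with the pattern most like each keratin were ranked by Pearson r of log2(FPKM + 1) over the 12 libraries among 15150 tested genes. For Krt8 these were Tmem54 (r = 0.997), Perp (0.994) and S100a16 (0.994). For Krt19 they were S100a16 (0.993), Krt8 (0.992) and Ppap2c (0.988). For Krt20 they were Mall (0.990), Dhrs9 (0.987) and Plac8 (0.985). Dhrs9, a retinol dehydrogenase, ranged like Krt20 over wide levels, from 1.16 to 143 FPKM. For Krt23 they were Rem2 (0.987), the Wnt pathway transcription factor Tcf7 (0.983) and Dos (0.980), all highest in Tet1-null library 0. For Krt18 they were Rnd3 (0.955), Itgav (0.954) and Clic1 (0.948), and for Krt7 Sdcbp (0.942), Rtn4 (0.937) and Nabp1 (0.935), each highest in Tdg-heterozygous library 2. Krt13 was followed by Usp15 (0.959), Nars (0.951) and Cyp51 (0.951), Krt14 by Zc2hc1a (0.947), Psmd13 (0.936) and Isy1 (0.917), and Krt6a by Cd44 (0.956), Smox (0.944) and Bok (0.943). All values share the same 12 libraries and their normalization, and no p is attached to these ranks.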

How the data were processed

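RNA from 12 adenoma samples, 3 for each of 4 genotypes, was sequenced as single-end reads of 75 nt from 500 ng of total RNA. Per the labels' protocols, reads were aligned to mm10 with TopHat2, and the submitters' processing notes name Cufflinks and Cuffdiff. Tool versions, annotation, strand handling and the treatment of reads with several matches are not given in the sources used here. Values were deposited by the authors as FPKM, a unit read from the name of the table. Column letters give the group of a library, and column numbers 0 to 2 were not tied to the labelled replicates 1 to 3. Of 25705 Ensembl IDs, 25119 matched GENCODE M21.

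The 15150 genes that reached 1 FPKM in 3 or more libraries were fitted as log2(FPKM + 1) in limma 3.58.1 (R 4.3.3), with 4 group means, a variance trend, 5 contrasts and an F test. Calls used Benjamini-Hochberg adjusted p under 0.05, and the procedure was tested on simulated data for 1 contrast. The simulated spread was independent between genes and capped below the within-group SD of most keratins. It therefore does not show whether differences in genes as variable as these would be found. Correlations used two-sided permutation tests with 100000 resamples, adjusted over 5 pairs. Shared sequence was counted as 75-nt windows of the longest coding transcript found in transcripts of other genes. The named genes are the 10 keratins, the 3 genes most correlated with each of the 9 tested, and the 3 most abundant members of the lists tested for genotype. Other markers named were chosen after their values were seen or for their known roles. The keratins and lists were chosen with earlier results of these data known. Alternatives tried were pseudocounts of 0.1 and 5, filters, scalings, robust variance, library weights, a replicate block and left-out libraries.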

Additional observations from a re-analysis of the deposited data

How the results depend on the processing

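No keratin was called in any comparison under any setting run. Of 1111 keratin differences under these settings, 126 changed sign and 35 moved by more than 1 SE, and the lowest adjusted p was 0.362, with library weights. Scalings and pseudocounts changed few signs, at most 3 of 45 each, and leaving out Tdg-heterozygous library 2 changed 17 of 45. Without Tet1-null library 1 and Tdg-heterozygous library 2 it was 27 of 45, and without double-heterozygous library 0 as well, a set chosen after seeing the data, 31 of 45. The F test was run under the settings after seeing the data too. Counts of all genes called were small and moved with the settings. For Tet1-null against control (2 genes) they were 1 with a pseudocount of 5, 4 without a filter, 0 at a mean FPKM of at least 5, 236 with library weights and 6 without the 3 libraries. The weights of Tet1-null libraries 0, 1 and 2 were 0.457, 0.256 and 5.25, so library 2 dominated that group in the weighted fit. For double-heterozygous against control (3) they were 5 without a filter, 5 with library weights, 12 with only the groups compared, 5 without the 2 libraries and 8 without the 3. For Tdg-heterozygous against control (3) they were 1 at a mean FPKM of at least 5, 8 with only the groups compared, 5 without the 2 libraries and 5 without the 3. For double-heterozygous against Tdg-heterozygous (0) they were 1 with only the groups compared and 2 without the 3. For the mutant mean against control (3) they were 5 without a filter, 6 with library weights, 5 without the 2 libraries and 7 without the 3. The F test (4) gave 1 at a mean FPKM of at least 5 and 9 without the 3. The cause of these shifts was not tested. Leaving out 1 library at a time gave 1 to 3 genes for Tet1-null, 2 to 5 for double-heterozygous and 2 to 5 for Tdg-heterozygous against control, 0 to 2 for double-heterozygous against Tdg-heterozygous, 2 to 5 for the mutant mean and 3 to 6 for the F test. No pairing by column number was evident, with deviations of same-numbered libraries correlated at -0.51 to 0.44 over 18 pairs. Whether any pairing exists cannot be told from these values. A replicate block by column number gave 1 gene called in Tet1-null against control and changed 0 of 45 keratin signs. With equal library totals, r was 0.554 for Krt8 and Krt18 and 0.488 for Krt18 and Krt19, both past the threshold only without that scaling. With 3 libraries a group, the median SE of a log2 difference between a mutant group and control was 0.262 over all tested genes. For the keratins this SE ran from 0.256 (Krt7) to 1.82 (Krt20), so most of their differences were measured less precisely. Depth in reads is unknown.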

Other observations

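The other keratins held single libraries with high values, here for 3 genes singled out after their values were seen. Krt84 and Krt35 are among the 8 tested, and Krt80 was not tested. Krt84, a type II hair keratin, was at 9.86 FPKM in Tet1-null library 1 and at 0.463 to 1.76 FPKM in the other 11 libraries. Krt80, a type II epithelial keratin, was at 6.91 FPKM in Tdg-heterozygous library 2 and at 2.33 FPKM or less elsewhere. Krt35, a type I hair keratin, was at 5.74 FPKM in double-heterozygous library 2 and 4.84 FPKM in Tet1-null library 0, and at 1.6 FPKM or less elsewhere. None of these values has a replicate in its group at the same level.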
